A study of Mus musculus with 21 samples.

Results

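Contacts of the Satb1 promoter were compared between adult thymus and embryonic stem (ES) cells, using 2 of the 21 libraries of a 4C-seq series. 4C-seq captures the DNA fragments that lie near 1 chosen fragment, the viewpoint, in fixed nuclei, and reads them by sequencing. The libraries were chosen by their labels, as the Satb1 promoter libraries cut with NlaIII and then DpnII in these tissues, without use of any measured value. The thymus library came from 1 thymus of an adult C57BL/6 mouse, and the ES library from the IB10/E14 line grown with leukemia inhibitory factor. Both samples were fixed in 2% formaldehyde for 10 minutes. Each group is 1 library, so there is no replicate, no test was run, and the tissue, the source of the cells and the library cannot be told apart. A whole thymus holds many cell types, and contact signals cannot be checked against expression markers.

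SATB1 is a DNA-binding protein that organizes chromatin loops and is needed for the development of T cells, and its gene is highly expressed in thymocytes. Promoters of genes with complex regulation can contact enhancers over long stretches of DNA without genes. Such contacts lie above a background of random collisions that drops steeply with distance. Contacts on either side of a promoter can differ when the chromosome is folded into domains whose borders limit contact.

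The viewpoint, taken as the position of the highest signal, was at 51.974 Mb of chromosome 17 (mm9) in both libraries. Satb1 lies on the minus strand, so lower coordinates run into and past the gene (the gene side) and higher coordinates lie upstream of the promoter (the upstream side). In the gene table, built on GRCm38.p6 and used for names and order only, Tbc1d5 is the next protein-coding gene past the end of Satb1. Kcnh8, a potassium channel gene, is the next one upstream. Between Satb1 and Kcnh8 the table has 5 entries, of which 4 are long noncoding RNAs (Gm20098, Gm19585, Gm41600 and Gm27217).

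A 4C fragment is bounded by the sites of its enzymes, CATG for NlaIII and GATC for DpnII, so the sequence before the outermost Satb1 start is shown with these sites in capitals. It covers the 250 bases before the start (RefSeq, GRCm38.p6, chr17:51833291-51833540, minus strand, 5′ to 3′).

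Satb1 promoter: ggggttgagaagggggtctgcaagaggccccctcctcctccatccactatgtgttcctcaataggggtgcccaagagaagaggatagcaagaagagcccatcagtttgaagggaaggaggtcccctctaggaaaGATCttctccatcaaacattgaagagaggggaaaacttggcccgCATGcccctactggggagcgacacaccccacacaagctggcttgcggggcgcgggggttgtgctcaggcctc

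This window holds 1 DpnII site at base 135 and 1 NlaIII site at base 179, with 40 bases between them. Both motifs read the same on either strand. Of 32851 promoter windows of this length in the table, 53.9% hold CATG, 41.9% hold GATC and 23.5% hold both. RefSeq gives 5 starts for Satb1, and only this one is shown because it is the outermost. Whether the viewpoint fragment is the one between these sites was not determined, since the viewpoint's primers were not used here.

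The files hold a signal every 1 kb from 51.7 to 53 Mb, smoothed by the authors over 48 running windows of 2 to 49 kb. The main values below use the 5 kb window. The signal is relative to the level at the viewpoint, and its mean over positions farther than 10 kb from the viewpoint was 0.00810 in thymus and 0.00497 in ES cells. Relative signal is the signal divided by this mean, so that a value of 1 is the library's own average over the locus. Comparisons are log2 ratios of thymus over ES cells after adding 0.1 to each relative signal.

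Large parts of both profiles were flat. In thymus 2 recurring values, at relative signals of 0.152 and 0.230, were held by 62.04% of the 1275 positions, and in ES cells 2 values, at 0.103 and 0.0870, were held by 55.6%. Empty positions made up 2.75% in thymus and 1.73% in ES cells. Both libraries were empty or at a recurring value at 581 positions, where the median log2 ratio was 0.43, a distance between 2 floors with no order. Depth is unknown, with read numbers not given in the sources used here, and no interval was computed.

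Contacts of the Satb1 promoter lay mostly upstream in thymus, whereas in ES cells they were split about evenly over both sides. Within 272 kb, the distance covered on both sides, 86.9% of the thymus signal beyond 10 kb lay upstream, against 47.4% of the ES signal. At 10 to 50 kb the upstream share was 84.7% in thymus and 45.2% in ES cells. At 50 to 100 kb it was 94.2% in thymus and 60.8% in ES cells, and at 100 to 272 kb it was 85.2% in thymus and 38.9% in ES cells. Over all 48 windows it stayed between 86.2% and 88.8% in thymus and between 47.4% and 52.7% in ES cells. The closest to a technical repeat in the series is the Hba-a1 promoter in fetal liver of 14.5 days post coitum. It was profiled from a full and a 1/16 amount of template. There the share on the side of higher coordinates, over that locus and its own distances, differed by 12.2 percentage points. The highest signals of that pair lay at 32.184 and 32.1879 Mb. Each share was taken around its own library's highest signal, so the difference is not technical spread alone.

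**Figure D1:**
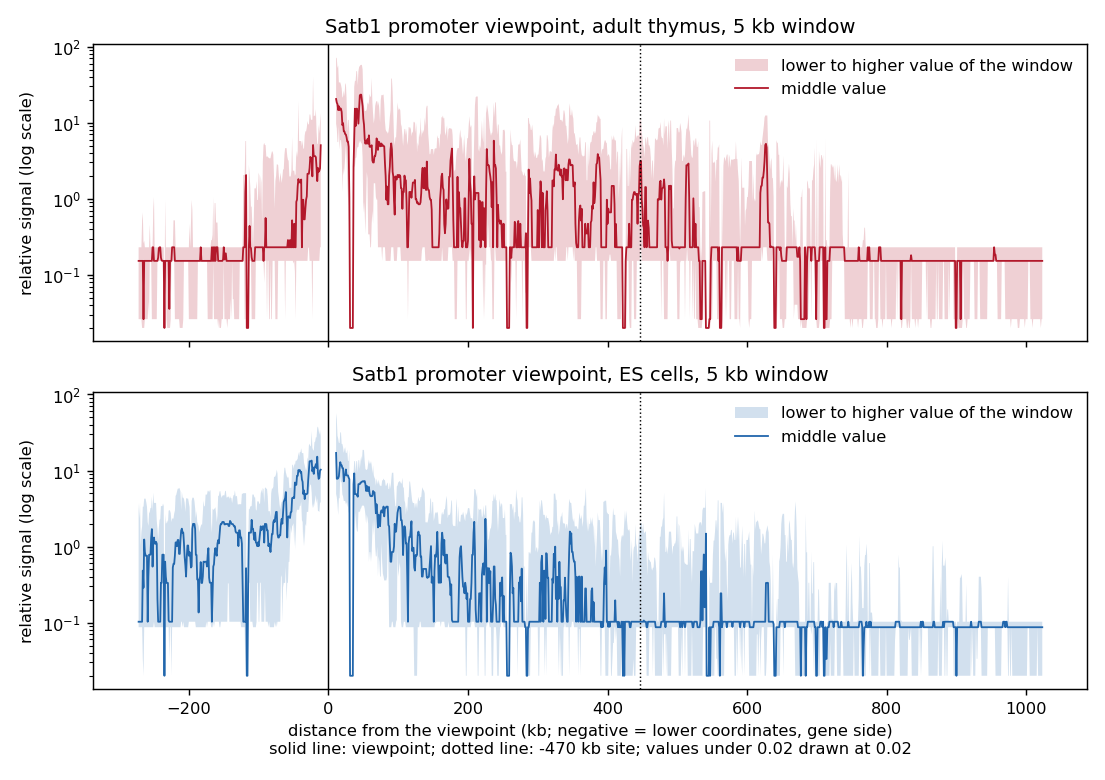
Relative signal (log scale) of the Satb1 promoter in adult thymus (upper panel) and ES cells (lower panel) against distance from the viewpoint, with the band between the lower and higher values that the files give for each 5 kb window. On the gene side the thymus line lies mostly at its recurring values of 0.152 and 0.230, and upstream the ES line reaches its own floor of 0.103 while thymus still shows separate peaks.

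The gene side held the longest difference. From 115 to 11 kb into the gene side (chromosome 17, 51859000 to 51963000), thymus was at least 2-fold below ES cells at 105 positions in a row. The mean relative signal there was 0.896 in thymus and 4.55 in ES cells, which is 5.08-fold higher in ES cells. In thymus 62 of these positions were empty or at a recurring value, and in ES cells 0 were. A second run, 164 to 124 kb out (51810000 to 51850000), held 41 positions with means of 0.164 in thymus and 1.62 in ES cells. The next runs were 18 positions from 51.752 to 51.769 Mb, with 0.161 in thymus and 1.07 in ES cells, and 15 positions from 51.771 to 51.785 Mb, with 0.152 in thymus and 1.14 in ES cells. These thymus means lie at the floor of the library, so the size of the difference beyond 115 kb is set by that floor. In the first run the floor also sets it at the 62 positions where thymus was empty or at a recurring value.

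Steps of 50 kb show how abruptly the thymus signal dropped on the gene side. In the first 50 kb beyond the zone left out, the mean relative signal was 1.97 in thymus and 8.75 in ES cells. From 50 to 100 kb it was 0.243 in thymus and 2.14 in ES cells, an 8.81-fold higher level in ES cells, and all 50 positions were past 2-fold. From 100 to 150 kb it was 0.229 in thymus and 1.39 in ES cells. Farther out, from 150 to 200, 200 to 250 and 250 to 300 kb, it was 0.163, 0.159 and 0.154 in thymus and 0.884, 0.701 and 0.607 in ES cells. The ES profile thus declined gradually to the end of the covered region, while thymus was at its floor at 46 of 50 positions already from 50 to 100 kb. The 2 exceptions in the opposite direction were positions 51.855 and 51.856 Mb, where thymus averaged 1.64 and ES cells 0.311, next to a stretch that was empty in both.

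Of the named positions, which lie at least 20 kb apart, the 2 with the largest deficits of thymus lay inside the first run. At both, thymus held a recurring value. Positions nearer to these were not ranked. At 51.936 Mb, 38 kb into the gene side, the relative signal was 0.230 in thymus and 7.64 in ES cells, a log2 ratio of -4.55. At 51.913 Mb it was 0.230 in thymus and 5.21 in ES cells (log2 ratio -4.01). The next named position in size, with a log2 ratio of -3.98 at 52.515 Mb, was upstream, where thymus was listed at 0 and ES cells had 1.48. At 51.958 Mb, in the first run and 16 kb from the viewpoint, the relative signal was 1.71 in thymus and 15.2 in ES cells (-3.08). Here thymus was not at a recurring value. With the 49 kb window the log2 ratio was -1.15 at 51.958 Mb, -2.32 at 51.936 Mb and -3.11 at 51.913 Mb. The other positions named on this side were 51.833 Mb, in the second run, with 0.152 in thymus and 2.17 in ES cells (-3.17), and 51.864 Mb, with 0.170 in thymus and 2.24 in ES cells (-3.12).

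**Figure D2:**
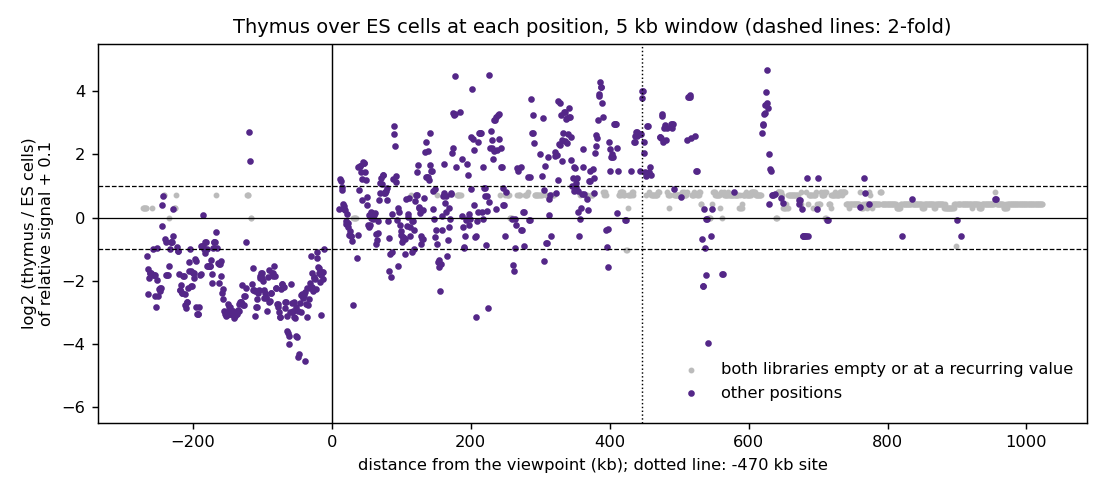
Log2 ratio of relative signal plus 0.1, thymus over ES cells, at each of 1275 positions against distance from the viewpoint. Grey points are positions where both libraries were empty or at a recurring value, and the dashed lines mark 2-fold. Points on the gene side lie mostly below the lower line, and points above the upper line are scattered in clusters on the upstream side.

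Over the whole locus, thymus was at least 2-fold above ES cells at 218 of 1275 positions (17.1%) and at least 2-fold below at 239 (18.7%). ES cells were empty or at a recurring value at 120 of the higher positions, and thymus at 178 of the lower ones. Where neither library was empty or at a recurring value, which left 299 positions, 95 were higher and 61 lower in thymus, of which 94 lay upstream and 48 on the gene side. Of all 218 higher positions 216 lay upstream, which is 21.3% of the upstream side, and 2 on the gene side. Of all 239 lower positions 210 lay on the gene side, which is 80.2% of that side, and 29 upstream. The numbers depend on the scaling, since the deposited mean was 1.63-fold higher in thymus. With the signal as deposited, 527 positions were higher and 205 lower. With each library scaled to its median 153 were higher and 369 lower, and after division by a fitted distance decay 155 were higher and 348 lower. Of the higher positions 517, 152 and 150 were upstream under these scalings. Of the lower ones 190 of 205, 236 of 369 and 223 of 348 were on the gene side, so with the median and the decay a larger part of the lower positions lay upstream.

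The upstream excess of thymus came in shorter stretches than the deficit on the gene side, which itself was split into 11 runs. There were 52 runs past 2-fold in the higher direction and 30 in the lower one, and the longest higher run had 24 positions. It reached from 324 to 347 kb upstream (52298000 to 52321000), with mean relative signals of 2.40 in thymus and 0.400 in ES cells. ES cells were above their floor at 18 of its positions, so this stretch was measured in both. The second, from 435 to 452 kb (52409000 to 52426000), held 18 positions with 1.29 in thymus and 0.103 in ES cells. The third, from 378 to 390 kb (52352000 to 52364000), had 13 positions with 2.12 in thymus and 0.123 in ES cells. Runs of 12, 11 and 11 positions followed, from 399 to 410 kb (0.965 in thymus and 0.1003 in ES cells), from 134 to 144 kb (1.79 in thymus and 0.448 in ES cells) and from 472 to 482 kb (1.33 in thymus and 0.108 in ES cells). In the run from 134 to 144 kb no ES position was at a floor.

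Nearer to the promoter the upstream means of the 50 kb bins differed by less than 2-fold. From 10 to 50 kb upstream the mean relative signal was 10.9 in thymus and 7.23 in ES cells, from 50 to 100 kb 4.11 in thymus and 3.41 in ES cells, and from 100 to 150 kb 1.32 in thymus and 1.13 in ES cells. The log2 ratios of these bins were 0.59, 0.26 and 0.20. Single positions within them differed by more. In the same order, 12, 11 and 13 were at least 2-fold higher in thymus and 2, 5 and 2 at least 2-fold lower. The run from 44 to 49 kb had 20.2 in thymus and 6.91 in ES cells, and that from 83 to 86 kb had 1.03 and 2.99. From 200 to 250 kb the levels parted, at 1.31 in thymus and 0.407 in ES cells (log2 ratio 1.47), and from 300 to 350 kb they were 1.61 in thymus and 0.400 in ES cells (1.77). From 400 to 450 kb thymus had 0.745 and ES cells 0.0982 (2.09), and from 450 to 500 kb thymus had 0.647 and ES cells 0.102 (1.89). In these last 2 bins ES cells were at a floor at 45 and 48 of 50 positions. The bin from 250 to 300 kb was a dip in both libraries, with 0.360 in thymus and 0.163 in ES cells.

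In all, 7 of 27 bins were at least 2-fold higher in thymus, all between 200 and 650 kb upstream, and 6 were at least 2-fold lower, the whole gene side. After division by the distance decay 1 bin stayed at least 2-fold higher, that from 200 to 250 kb, with a log2 ratio of 1.06, and all 6 gene-side bins stayed lower. Beyond 272 kb the decay is fitted on the upstream side alone, so it follows the level of that side. With each library scaled to its median, or with a pseudocount of 0.5, 3 bins were at least 2-fold higher in thymus. With the lower column of each window in place of the middle one, 1 gene-side bin was at least 2-fold lower in thymus, the one nearest the promoter (log2 ratio -3.75), and that from 50 to 100 kb had -0.86.

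A distal island stood apart from the rest in the thymus promoter library. From 52593000 to 52603000, starting 619 kb upstream, the mean relative signal was 2.74 in thymus and 0.165 in ES cells. In the bin from 550 to 600 kb just before it, thymus was at a recurring value or empty at all 50 positions. The island held the largest log2 ratio of the locus, 4.67 at 52.6 Mb, where thymus had 5.08 and ES cells 0.103, the ES floor. This ratio shrank with wider windows, to 3.85 (10 kb), 2.56 (20 kb) and 0.99 (49 kb). Beyond 700 kb upstream both libraries were flat at 311 of 324 positions.

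The other positions with a large excess in thymus were at 52.201, 52.151, 52.36, 52.176 and 52.421 Mb. Their relative signals in thymus were 4.50, 4.57, 3.87, 3.35 and 3.13, against an ES level of 0.109 at 52.151 Mb and the ES floor of 0.103 at the other 4. Most of these depended on the window. At 52.201 Mb the log2 ratio was 4.51 with the 5 kb window and 1.57 with the 10 kb window, and with the 2 kb window both libraries were listed at 0. At 52.176 Mb the ratio was 4.09 with 5 kb, 0.87 with 10 kb and 0.71 with 20 kb, and at 52.151 Mb it was 4.48 with 5 kb, 2.08 with 10 kb and 0.42 with 49 kb. At 52.421 Mb it was 4.00 with 5 kb, 2.52 with 10 kb and 1.57 with 49 kb. Just 2 kb from the position at 52.201 Mb, at 52.199 Mb, the order was turned, with 0.230 in thymus and 2.31 in ES cells. The position at 52.36 Mb had a log2 ratio of 4.71 with the 2 kb window, 3.82 with 10 kb and 1.99 with 49 kb.

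**Figure D3:**
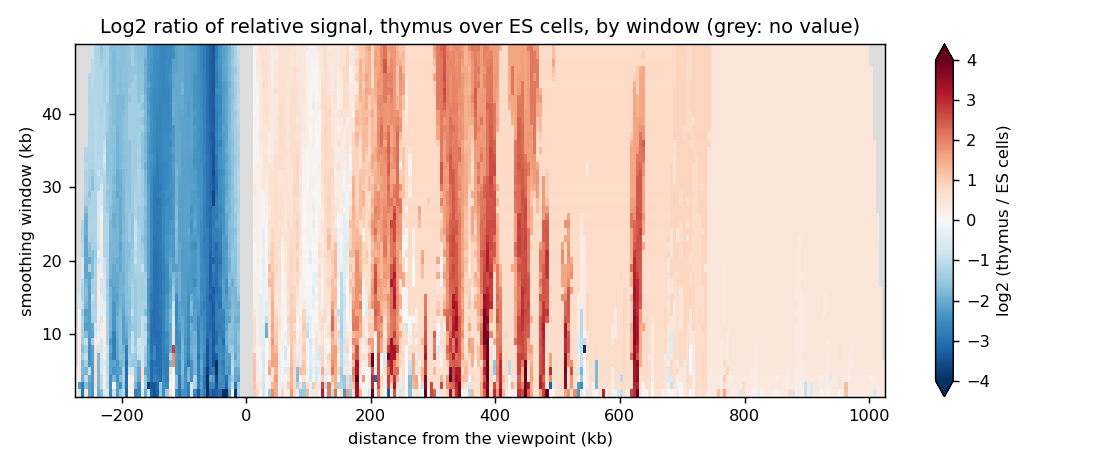
Log2 ratio of relative signal, thymus over ES cells, against distance from the viewpoint for each smoothing window from 2 to 49 kb, with red for higher in thymus and blue for lower. The gene side is mostly blue, with narrow red spots at the smaller windows, and upstream red columns near 235, 347, 390, 452 and 626 kb widen and fade as the window grows.

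Wider windows merged the stretches, with little change in the numbers past 2-fold. The split over the sides did move. Of the positions lower in thymus, 75.1% lay on the gene side with the 2 kb window, 87.9% with 5 kb and 100% with 20 kb. Over the 48 windows the number of positions higher in thymus ran from 211 to 247 and the number lower from 231 to 265. At the 49 kb window 235 positions were higher, in 6 runs, and all lay upstream. The lower ones at that window all lay on the gene side, in 2 runs, the longest of 233 positions. Across positions the log2 ratio had an SD of 1.61 with the 2 kb window, 1.52 with 5 kb and 1.28 with 49 kb. The Hba-a1 template pair, of another viewpoint, had SDs of 1.48, 1.00 and 0.98 with these windows. With the 2 kb window the spread between tissues was thus close to that of this pair. The pair also differs in the place of its highest signal. With the 5 kb window its empty positions made up 21.2% with the full template and 0.533% with 1/16. Its SD is therefore not technical spread alone. Spearman's rho between the profiles was 0.537 over 1275 positions, which share the same decay with distance and are not independent.

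The 3 columns of each window give a lower and a higher value beside the middle one (their quantile levels: not given in the sources used here). The lower thymus value exceeded the higher ES value at 85 positions (6.67%). At 78 of these both libraries were empty or at a recurring value, and 2 were past 2-fold. The higher thymus value was under the lower ES value at 7 positions (0.549%), and thymus was empty at 5 of them. Of these 7 positions 3 lay on the gene side. At the 6 positions named above for an excess in thymus the bands of the libraries overlapped. Of the 6 named for a deficit the bands were separate at 1, at 52.515 Mb on the upstream side. They overlapped at the others, which include the largest named deficits, at 51.936 and 51.913 Mb.

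The site that the study used as a viewpoint of its own, named -470 kb and measured here 446 kb upstream, was higher in thymus from both ends. From the promoter, its relative signal over 11 positions (52415000 to 52425000) ranged from 0.447 to 3.13 with a mean of 1.47 in thymus, while all 11 positions held the ES floor of 0.103. The log2 ratio was 2.96. Looking back from the -470 kb site, in another pair of libraries cut with DpnII and Csp6I, the promoter (51969000 to 51979000) had a mean of 1.57 in thymus and 0.253 in ES cells, a log2 ratio of 2.24, and 5 of 11 ES positions were at a floor or empty. Across all 48 windows the log2 ratio ran from 1.58 to 3.03 from the promoter and from 1.57 to 2.44 from the -470 kb site. With the lower column the log2 ratio from the promoter was 1.03. After division by the distance decay it was 1.11 from the promoter and 1.39 from the site. The mean signal at the -470 kb site was at percentile 89.03 of positions at 0.5 to 2 times its distance in thymus and at percentile 81.5 in ES cells, where many positions tie at the same floor.

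The thymus profile could be set beside 2 other thymus viewpoints, named +1.5 kb and -6 kb. The first was cut with NlaIII and Csp6I and the second with DpnII and Csp6I, so each shares an enzyme with the promoter library. Their highest signals lay 4 kb to the gene side and 3 kb upstream of the promoter viewpoint. The labels do not say whether they came from the same thymus. Beyond 50 kb on the gene side, relative signals of at least 0.5 were found at 4 of 223 positions from the promoter in thymus, at 30 from +1.5 kb and at 47 from -6 kb, against 172 in ES cells. In all 5 bins there the 3 thymus viewpoints lay below ES cells. The bins from 50 to 100 kb differed within thymus, at 0.243 from the promoter, 1.09 from +1.5 kb and 0.915 from -6 kb, with 2.14 in ES cells.

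Close to the gene the +1.5 kb viewpoint did not share the upstream bias. At 10 to 50 kb 29.9% of its signal lay upstream, against 84.7% from the promoter and 69.7% from -6 kb in thymus, and 45.2% from the promoter in ES cells. At 100 to 272 kb the shares were 91.01% from +1.5 kb, 85.2% from the promoter and 87.95% from -6 kb in thymus, and 38.9% in ES cells. With +1.5 kb in place of the promoter the overall excess of the upstream share over ES cells was 14.4 percentage points in place of 39.5, and with -6 kb it was 31.1. In the first 50 kb on the gene side the mean relative signal was 1.97 from the promoter, 6.26 from +1.5 kb and 1.89 from -6 kb in thymus, and 8.75 in ES cells. From +1.5 kb this stretch was thus less than 2-fold below ES cells. In the run from 115 to 11 kb the means were 0.896, 2.79 and 1.20 in thymus, in the same order, and 4.55 in ES cells. At 51.958 Mb the values were 1.71, 13.2 and 2.78 in thymus and 15.2 in ES cells.

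**Figure D4:**
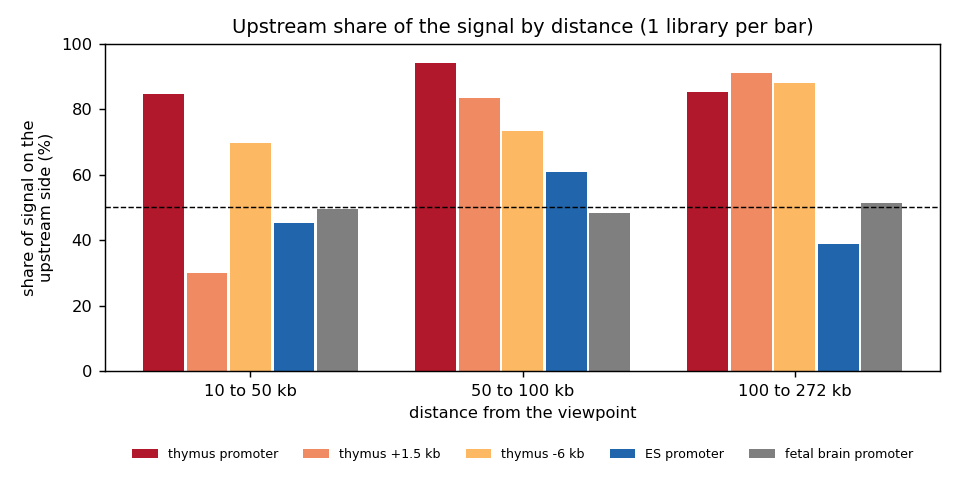
Share of signal on the upstream side of the viewpoint at 3 ranges of distance, 1 library per bar, with the 3 thymus viewpoints left of ES cells and fetal brain and a dashed line at 50%. At 100 to 272 kb the thymus bars reach 85.2%, 91.01% and 87.95%, against 38.9% in ES cells and 51.3% in fetal brain. At 10 to 50 kb the thymus viewpoints range from 29.9% to 84.7%.

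Upstream, the 3 thymus viewpoints lay above ES cells in all 6 bins from 200 to 500 kb. From 500 to 700 kb they also had higher values in all 4 bins, but from 550 to 600 kb the promoter libraries were empty or at a recurring value at 50 of 50 positions in thymus and 47 of 50 in ES cells, and from 650 to 700 kb at 39 and 47 of 50, so the order in these bins is largely that of the floors. In the 3 bins from 50 to 200 kb they did so in 1. The run at 324 to 347 kb had mean relative signals of 2.40 from the promoter, 3.37 from +1.5 kb and 1.98 from -6 kb in thymus, and 0.400 in ES cells. At 435 to 452 kb, which holds the -470 kb site, they were 1.29, 4.80 and 1.33 in thymus and 0.103 in ES cells. The run at 399 to 410 kb was less even, at 0.965 from the promoter, 0.228 from +1.5 kb and 0.922 from -6 kb in thymus and 0.1003 in ES cells. The distal island had 2.74 from the promoter, 1.55 from +1.5 kb and 1.36 from -6 kb in thymus, and 0.165 in ES cells. The bin from 550 to 600 kb before it had 0.207 from the promoter, 0.129 from +1.5 kb and 0.667 from -6 kb in thymus. From -6 kb the island was thus less set apart.

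Fetal brain, profiled from the same promoter with the same enzymes in embryos of 14.5 days post coitum, adds another tissue to the comparison. On the gene side brain was nearer to ES cells. From 50 to 100 kb brain and ES cells both had 2.14, with 0.243 from the promoter in thymus. At the run of 164 to 124 kb brain had 0.956, with 0.164 in thymus and 1.62 in ES cells. Upstream, brain lay between thymus and ES cells at the run of 324 to 347 kb (0.653) and at the -470 kb site (0.529). At the distal island brain had 1.34, and the bin from 600 to 650 kb had 0.907 in brain, 0.782 in thymus and 0.111 in ES cells. In the bin from 550 to 600 kb before it brain had 0.637. Of these 5 libraries that of ES cells had the lowest signal at the island. Beyond 200 kb upstream, a relative signal of at least 0.5 was reached at 165 of 823 positions in thymus, 39 of 823 in ES cells and 318 of 823 in brain. The farthest of these lay at 52.603 Mb in thymus, 52.515 Mb in ES cells and 52.674 Mb in brain.

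**Figure D5:**
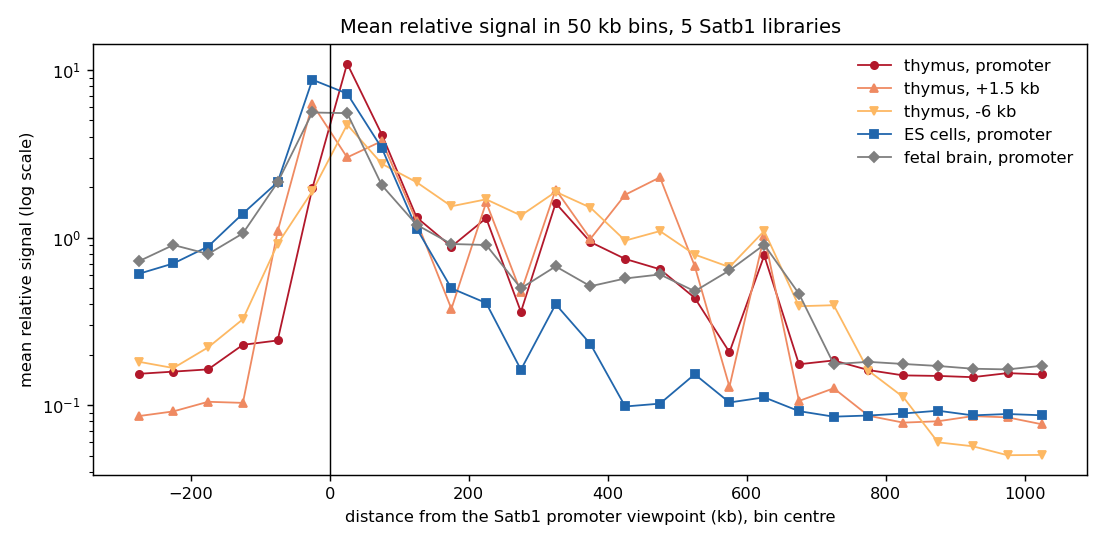
Mean relative signal (log scale) in 50 kb bins against distance from the Satb1 promoter for 5 libraries, 1 line each. On the gene side beyond 50 kb all 3 thymus viewpoints lie below ES cells and fetal brain, and between 200 and 500 kb upstream ES cells lie below the other 4 libraries in all 6 bins.

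The 5 highest maxima of each profile, relative to the distance decay, did not coincide within 10 kb. In thymus they were at 52.601, 52.211, 52.151, 52.36 and 52.3 Mb, and in ES cells at 52.515, 52.32, 52.372, 52.199 and 51.721 Mb. None of the 5 thymus maxima had an ES maximum within 10 kb. Just past that limit lay 52.211 Mb in thymus with 52.199 Mb in ES cells, and 52.36 with 52.372 Mb. The ES maximum at 52.32 Mb, with relative signals of 3.25 in thymus and 1.57 in ES cells, lies within the longest run of higher thymus signal. Relative to the decay, the level at 52.32 Mb was similar in both, at 3.99-fold in thymus and 4.19-fold in ES cells. The ES maximum at 52.515 Mb had 1.48 in ES cells, whereas thymus was listed at 0 there, and so were both other thymus viewpoints and brain. With windows of 20 and 49 kb the log2 ratio at this position turned to 0.36 and 0.78, so it rests on a narrow stretch. The one maximum of ES cells on the gene side, at 51.721 Mb, had 0.152 in thymus and 1.70 in ES cells. The log2 ratio there was 0.20 with the 2 kb window, -2.83 with 5 kb and -2.15 with 10 kb. With the same 3 windows it was 2.98, -1.58 and 0.72 at 52.372 Mb, and -2.60, -2.87 and 0.69 at 52.199 Mb.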

How the data were processed

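Per the labels' protocols, fixed chromatin was cut, ligated, cut again and ligated, and partners of the viewpoint were read after inverse PCR. The authors deposited a signal smoothed over running windows, mapped to mm9 (the build in the submitters' processing notes). Aligner, filters and read numbers: not given in the sources used here. Window sizes were read from unfilled positions at the column ends. The middle value lay between the outer 2 at 100% of positions.

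Each library was divided by its mean beyond 10 kb, with a pseudocount of 0.1. Recurring values are those held by at least 5% of positions. The decay was a monotone (isotonic) fit over both sides (scikit-learn 1.9.0, Python 3.11.15). Named positions were up to 6 maxima of the log2 ratio per direction and 5 maxima per library, spaced by 20 kb or more and in the top 25% of signal, the 6 longest runs per direction and the -470 kb site. The distal island that starts at 619 kb, next in length among the runs, was described after its values were seen. Positions of the template pair were matched within 500 bp. The libraries were picked by label and no measured value was used for that, but members, lists and rules were chosen with earlier results of these data known. Code was tested on simulated profiles. Alternatives covered windows, scaling, pseudocount, columns, left-out zone and viewpoints.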

Additional observations from a re-analysis of the deposited data

How the results depend on the processing

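Of 541 recomputed values, 417 moved by less than the spread of the template pair, 120 moved by more and 4 turned in direction. For ratios that spread is an SD of single positions and no error of a mean, and for counts the limit was 1.5 times. A log2 ratio was counted as turned only if its main value was at least 1 in size. Smaller ratios that changed sign were counted by the size of their move. With median scaling, for example, the bin from 50 to 100 kb upstream went from 0.26 to -0.89. The numbers of positions higher and lower in thymus (218 and 239) became 527 higher with the signal as deposited, 369 lower with median scaling, 593 and 142 with the lower column, 489 higher with a pseudocount of 0.01, 105 and 135 without positions that were empty or at the commonest value, 135 and 147 at 4-fold, and 573 higher with the thymus viewpoint -6 kb. Without any recurring value, an alternative chosen after seeing the data, 299 positions remained, with 95 higher and 61 lower. Bins higher in thymus (7) numbered 3 with median scaling, 1 with the distance decay and 3 with a pseudocount of 0.5, and bins lower (6) numbered 1 with the lower column. The upstream share moved with the thymus viewpoint +1.5 kb, to 14.4 percentage points. The log2 ratio at the -470 kb site from the promoter was 1.58 at 49 kb, 1.11 with the decay, 1.59 with the higher column, 1.03 with the lower column, 1.71 with a pseudocount of 0.5 and 4.52 with the viewpoint +1.5 kb. By the rule above, the log2 ratio turned for the bin from 500 to 550 kb with the decay (1.09 to -0.45). It also turned for the bin 250 to 200 kb on the gene side with the lower column (to 0.30). The last 2 turns were at 52.515 Mb with windows of 20 and 49 kb (0.36 and 0.78). Their cause was not tested. No paired analysis was possible because each group is 1 library. Flat values limit every ratio against a floor.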

Other observations

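Both libraries were empty at the same 22 positions, in 8 stretches. The longest was from 52.005 to 52.009 Mb, 31 to 35 kb upstream of the promoter, followed by 52.23 to 52.233 Mb and 52.516 to 52.519 Mb. Every one of the 22 positions was also empty from the +1.5 kb and -6 kb viewpoints in thymus and from the promoter in fetal brain. The +1.5 kb library shares NlaIII with the promoter libraries and the -6 kb library shares DpnII, so their fragment maps are not independent. The ES maximum at 52.515 Mb borders one of these stretches.

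Signal was concentrated closer to the viewpoint in ES cells. In thymus 50% of the signal beyond 10 kb lay within 73 kb and 90% within 512 kb, and in ES cells within 50 kb and 235 kb. The part beyond 200 kb upstream was 32.2% in thymus and 9.53% in ES cells. Positions at a floor count in these sums, and the floor was higher in thymus (0.152 and 0.230) than in ES cells (0.103 and 0.0870). How much of the difference comes from the floors was not tested.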
